A study of Rattus norvegicus with 2 samples.

Results

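The TNF superfamily ligands, receptors and adaptors were examined in primary oligodendrocyte precursor cells (OPCs) of adult rat brain. OPCs are proliferating glia from which myelinating oligodendrocytes form. Members were taken by gene symbol, under a rule that has no threshold on measured values but was written with earlier results of these data known: TNF superfamily ligands and receptors, the TRAF and RIPK genes, Tradd, Birc2 and Birc3, plus LOC103694380, a second entry that was read as a sum with Tnf. The rule found 51 of 17049 entries in the deposited expression table, or 50 genes once that pair was summed. The series holds 2 RNA-seq libraries, both of wild-type cells cultured at 37 °C under 5% CO2 in OGM medium. One culture received 1 µM amyloid-β (Aβ), which forms the plaques of Alzheimer's disease, for 2 days, and the other is labelled DMSO, a solvent. The treatment protocol mentions Aβ for either sample, so the control was taken from its treatment label. The sources used here give neither the age in numbers nor whether animals were pooled. Each group is 1 library, so the differences below lack any replicate check and carry neither p-values nor standard errors.

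TNF superfamily ligands are mostly trimeric proteins, made on the cell membrane and often shed, that cluster their receptors. Receptors with a death domain recruit adaptors such as TRADD and the kinase RIPK1, and can lead to cell death or to NF-κB activity. Other receptors bind TRAF proteins directly and signal to NF-κB and the MAP kinases, with the ubiquitin ligases cIAP1 (Birc2) and cIAP2 (Birc3) in the same complexes. In brain, TNF comes largely from microglia, and TNF receptor 2 (Tnfrsf1b) has been tied to the proliferation of OPCs and to remyelination.

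The libraries held 15704932 (Aβ) and 15663751 (control) estimated reads. OPC markers summed to 2686 (Aβ) and 2892 TPM (control), where TPM corrects reads for the length of a gene and the size of a library, and Olig1, Olig2 and Ptprz1 carried most of it. Pdgfra was at 23.2 and 24.6 TPM and Cspg4 at 6.65 and 3.7 TPM. By reads scaled to library totals, 4 of the 9 OPC markers at 1 TPM or more were higher with Aβ and 5 lower. Of all genes at that level, 50.4% were higher. Among defining OPC-lineage genes, low levels were found for Sox10, at 0.84 and 1.22 TPM and for Gpr17 at 0.13 TPM in both libraries. Astrocyte markers, all 7 detected, summed to 2122 and 2161 TPM. Mature oligodendrocyte markers summed to 208 and 219 TPM, mostly Cnp, and neuron markers to 127 and 124 TPM, mostly Map2. Microglia and macrophage markers, 12 of 12 with reads in both libraries, summed to 293 and 340 TPM. Among T and B cell markers, Cd2, Cd8a and Cd79b had 3 reads or fewer in each library (Cd2 was at 0 with Aβ and Cd8a at 0 in the control), and Cd4, which microglia also express, was at 8.74 and 9.48 TPM. Endothelial markers summed to 4.67 and 4.46 TPM and fibroblast and pericyte markers to 2.86 and 5.99 TPM. The part of these cells in the values below was not tested, and in bulk RNA fewer cells of a type and less RNA per cell cannot be told apart.

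With Tnf and LOC103694380 summed, no member of the family passed either rule of size given below, and few of all genes did. Of the 50 genes, 33 reached 1 TPM in the Aβ library, the control or both, and 31 of these had 50 or more reads over both. A read ratio here is Aβ over control after scaling reads to the library totals, with an exact Clopper-Pearson 95% interval that covers counting error only and compares 2 libraries, not the conditions. By TPM with a pseudocount of 1, 0 of 33 members were 2-fold higher and 0 were 2-fold lower, where 0.493% of all 12979 genes kept were higher and 0.493% lower. By reads, 0 of 31 were 1.5-fold higher and 0 were 1.5-fold lower, where 1.73% and 1.44% of 12291 genes with 50 or more reads were. The read interval lay above 1 for Ripk2 and Tnfrsf21, 2 of 31, against 12.4% of those genes. It lay below 1 for Tnfrsf1a and Tnfsf13, also 2 of 31, against 12.8%. Neither share was above that of all genes. For 19 of 31 members the whole interval lay within 1.5-fold of equal, where 82% of all genes did. For 29 of 31 members the whole interval lay within 2-fold of equal, where 95.1% of all genes did, and the exceptions were Tnfsf13 and Tnfrsf9. The median log2 read ratio was 0.06 over the 33 members, 17 above equal (50.4% of all genes kept were) and 16 below, but −0.03 over the 31 with 50 or more reads, beside 0.00 for all genes in either case.

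**Figure D1:**
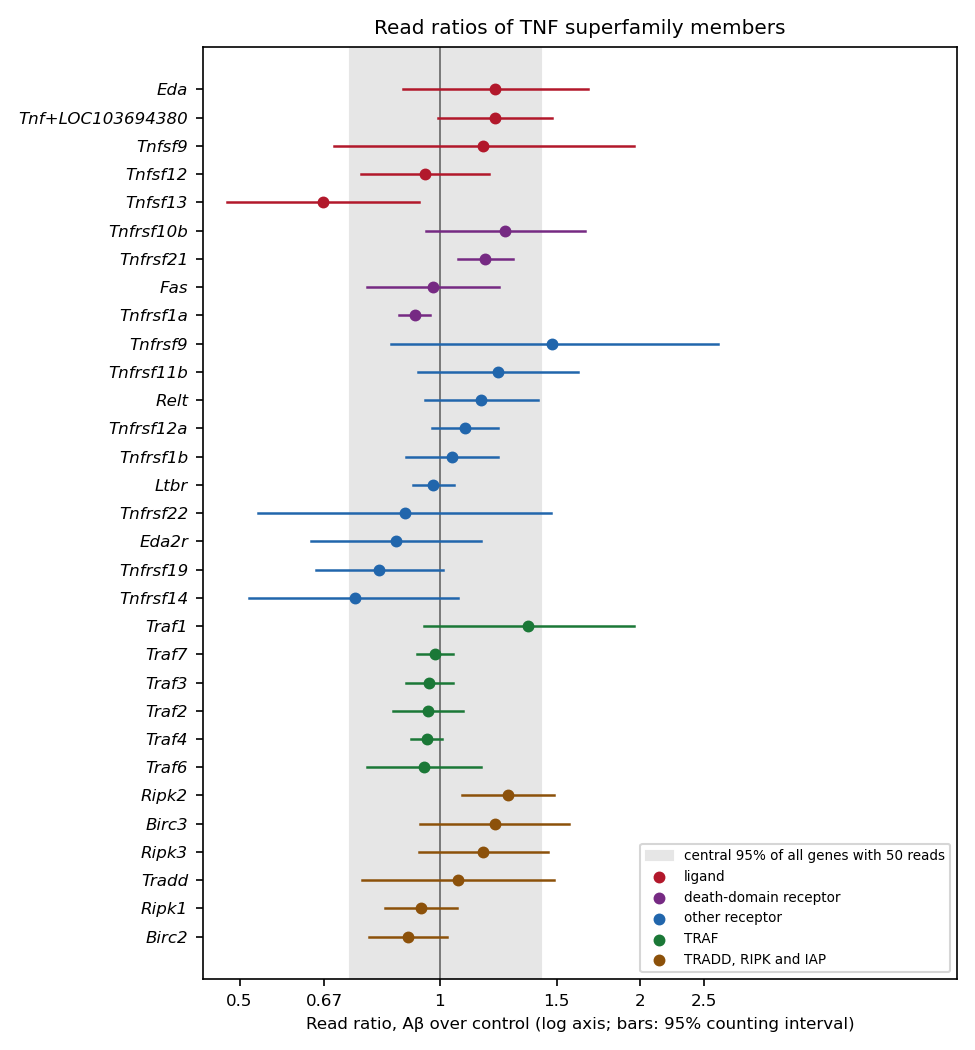
Read ratio of Aβ over control (log axis) for the 31 members with 50 or more reads, grouped by role, with 95% counting intervals as bars; the grey band is the central 95% of all genes with as many reads, 0.732 to 1.42. Most points sit inside the band, and the intervals of Ripk2, Tnfrsf21, Tnfrsf1a and Tnfsf13 exclude 1.

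Tnf, the cytokine that gives the family its name, has to be read together with LOC103694380. The row named Tnf (gene number 24835) was listed at 76.02 estimated reads and 5.27 TPM with Aβ, and at 0 reads in the control. The row LOC103694380 was listed at 150.98 reads and 10.2 TPM with Aβ, and at 187 reads and 12.6 TPM in the control. The rows thus went opposite ways, and the sums were whole numbers, 227 reads for Aβ against 187 for the control. The sum gave a read ratio of 1.21 (0.993 to 1.48), which did not exclude equality. With Aβ, 33.5% of the summed reads went to the row named Tnf. The level per read was close in both rows, at 6.93 TPM per 100 reads for Tnf and 6.76 for LOC103694380. LOC103694380 has no entry in the RefSeq gene table used here, where the other 50 gene numbers were found with the same symbol. Of 11 measured microglia and macrophage markers, 5 had a ratio above 1 and 6 below. For 3 of them the read interval was below 1 and for 0 above it, where over all genes kept the shares were 12.5% and 12%, and their part in the Tnf value was not tested.

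**Figure D2:**
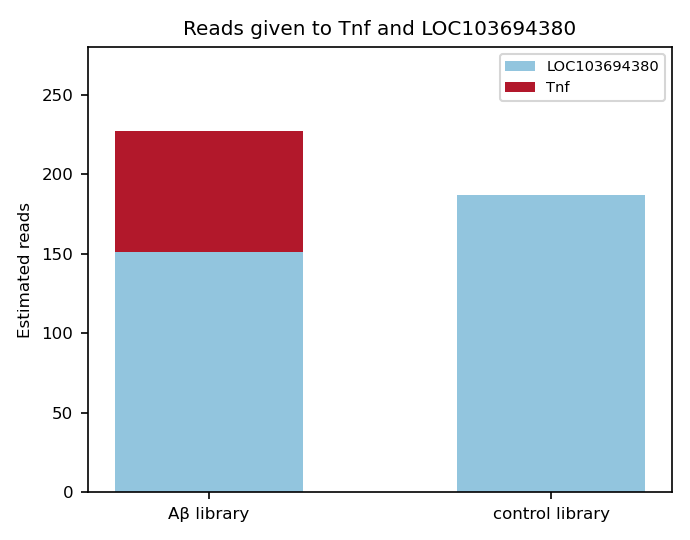
Estimated reads given to Tnf and to LOC103694380 in the Aβ and control libraries, as stacked bars from 0. All 187 control reads sit on LOC103694380, while the 227 Aβ reads are divided, 76.02 of them to Tnf.

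Of the 13 ligands, 5 were at 1 TPM or more, 3 of them with a ratio above 1 and 2 below. The share above 1 over all genes kept was 50.4%. Tnfsf13 (APRIL, a survival factor of B and plasma cells) had the lowest ratio of the members measured. It was at 63 reads and 4.18 TPM with Aβ and 94 reads and 6.72 TPM in the control, which gave 0.668 by reads (0.478 to 0.930), just short of 1.5-fold lower. Tnfsf12 (TWEAK, the ligand of the receptor Fn14) was close to equal, with 162 and 170 reads (0.950, 0.762 to 1.19). Eda (ectodysplasin, known for hair and tooth development) had 90 and 74 reads, a ratio of 1.21 (0.882 to 1.67). Tnfsf9 (4-1BB ligand, a costimulator of T cells) had 35 and 30 reads (1.16, 0.694 to 1.96). The other 8 ligands were under 1 TPM in both libraries. Among these Faslg (the Fas ligand) had 10 and 15 reads, Tnfsf18 (GITR ligand) 10 and 6, Ltb (lymphotoxin β, with divided reads) 8 and 3.33, and Tnfsf13b (BAFF) 8 and 6. Tnfsf10 (TRAIL), Tnfsf4 (OX40 ligand), Tnfsf8 (CD30 ligand) and Tnfsf15 (TL1A) had 3 reads or fewer in each library. No difference in these 8 was detectable at this depth.

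Among 6 receptors with a death domain, 4 were measured, split 2 and 2 about equal, beside 50.4% of all genes kept above it. Tnfrsf1a (TNF receptor 1, the main route of soluble TNF to NF-κB and cell death) was the most abundant receptor of the family. It had 2572 reads and 133 TPM with Aβ and 2796 reads and 144 TPM in the control. Its ratio of 0.917 (0.869 to 0.968) was closer to equal than that of Tnfsf13, on many more reads. Tnfrsf21 (death receptor 6, for which a role in oligodendrocyte maturation has been described) was higher with Aβ. It had 963 and 820 reads, at 22.8 and 19.3 TPM, a ratio of 1.17 (1.07 to 1.29). Tnfrsf10b (the TRAIL receptor) had 122 and 97 reads (1.25, 0.953 to 1.65), and its interval included 1. Fas (the receptor of Fas ligand) had 154 and 157 reads, a ratio of 0.978 (0.778 to 1.23). The 2 death receptors under 1 TPM were Tnfrsf25 (death receptor 3), with 10 and 4 reads, and Edar (an ectodysplasin receptor), with 0 and 3. The 0 reads of Edar leave room for up to 3 reads, or 0.191 CPM in the depth of the Aβ library.

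Of 17 receptors without a death domain in this grouping, 11 were measured, 6 with a ratio above 1 and 5 below. Over all genes kept, 50.4% had a ratio above 1. An interval that excluded 1 was found for 0 of the 11, where 12% of all genes kept lay above and 12.5% below. Tnfrsf12a (Fn14, the TWEAK receptor) had 633 and 578 reads, at 92.4 and 85.3 TPM (1.09, 0.974 to 1.22). Ltbr (the lymphotoxin β receptor, which feeds the non-canonical NF-κB pathway) had 1533 and 1564 reads, at 82.7 and 84.3 TPM (0.978, 0.911 to 1.05). Tnfrsf1b (TNF receptor 2) had 322 and 308 reads, at 11.9 and 11.3 TPM, a ratio of 1.04 (0.889 to 1.22). All 3 intervals included equality and lay wholly within 1.5-fold of it. Tnfrsf19 (TROY, a partner of the Nogo receptor) had 153 and 188 reads, at 13.8 and 17.0 TPM (0.812, 0.651 to 1.01). Relt had 228 and 197 reads (1.15, 0.950 to 1.40). Tnfrsf11b (osteoprotegerin, the soluble decoy for RANK ligand) had 119 and 97 reads (1.22, 0.928 to 1.62). These intervals all included 1 as well.

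The scarcer receptors of this group spread further, on fewer reads. Tnfrsf9 (4-1BB) had the highest ratio of the members measured, 1.47 (0.844 to 2.62), on 34 and 23 reads. Tnfrsf14 (HVEM) was at 0.745 (0.517 to 1.07) on 56 and 75 reads. These 2 were the ends of the group, and neither interval excluded equality. Eda2r (the receptor of the A2 form of ectodysplasin) had 88 and 102 reads (0.860, 0.640 to 1.16), and Tnfrsf22 (a decoy TRAIL receptor of rodents) 32 and 36 (0.887, 0.533 to 1.47). Cd40, the receptor of CD40 ligand on antigen-presenting cells, was at 2.11 and 1.65 TPM on 22 and 18 reads. The 6 receptors under 1 TPM were Tnfrsf26 (27 and 23 reads), Tnfrsf11a (RANK, 14 and 9), Cd27 (13 and 11), Tnfrsf8 (CD30, 4 and 6), Tnfrsf4 (OX40, 4 and 4) and Tnfrsf13b (TACI, 1 and 0).

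**Figure D3:**
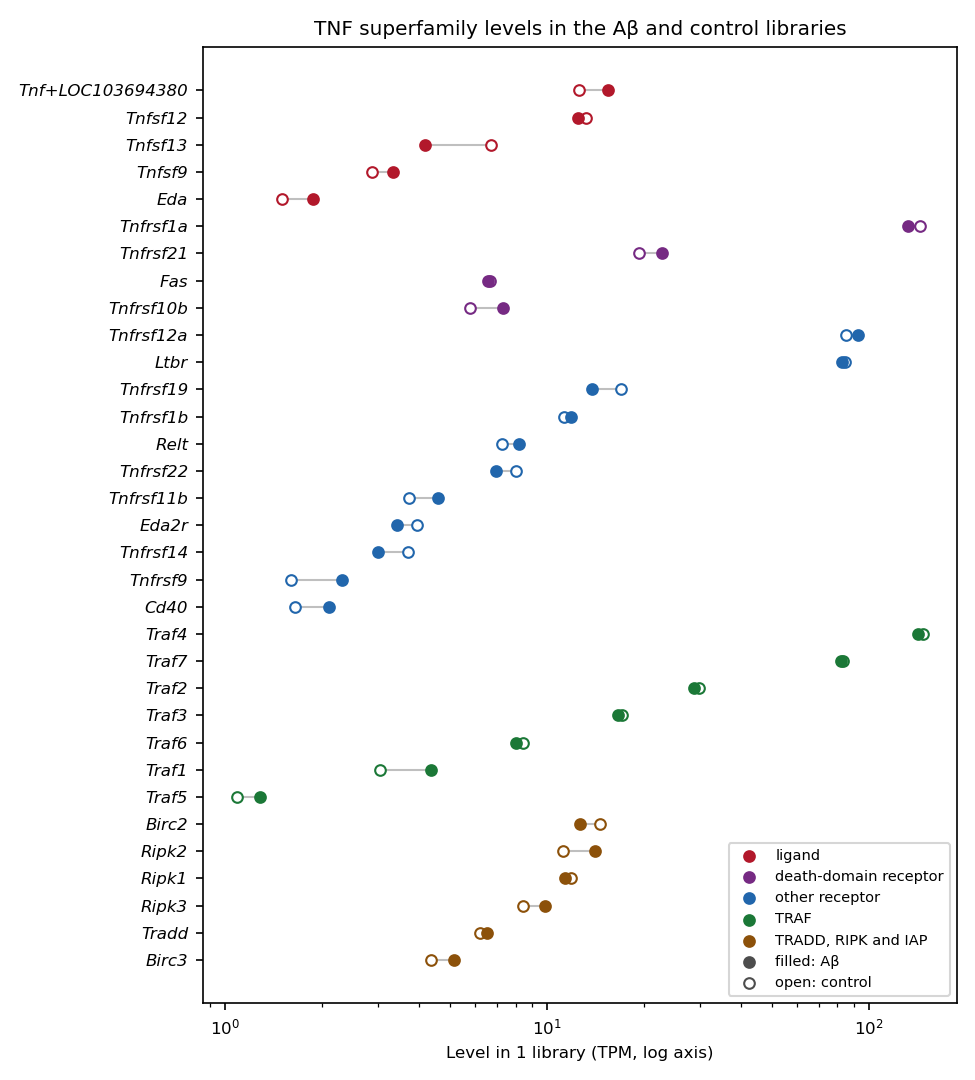
Level in TPM (log axis) of the 33 members at 1 TPM or more in either library, by role; filled points are the Aβ library, open points the control, with 1 library each. Traf4, Tnfrsf1a, Tnfrsf12a, Ltbr and Traf7 lie near or above 80 TPM, and the points of most pairs nearly touch.

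The TRAF genes, most of which encode adaptors between receptor tails and kinases, were all 7 at 1 TPM or more. Their ratios had a median of 0.965, with 2 above 1 and 5 below, where 50.4% of all genes kept were above. Among their intervals 0 excluded 1, where over all genes kept 12% lay above 1 and 12.5% below. Traf4 was the most abundant member of the family, at 143 and 147 TPM and with 2651 and 2764 reads (0.957, 0.907 to 1.01). Traf7 had 2023 and 2053 reads, at 81.9 and 83.3 TPM (0.983, 0.924 to 1.05). Traf3, a brake on non-canonical NF-κB signalling, had 1194 and 1234 reads (0.965, 0.890 to 1.05). Traf2, the partner of cIAP1 and cIAP2, had 529 and 549 reads (0.961, 0.851 to 1.09). Traf6, which also serves interleukin-1 and Toll-like receptors, had 202 and 213 reads (0.946, 0.776 to 1.15). These 5 ratios lay between 0.946 and 0.983, all with intervals that included 1. Traf1 went the other way, with 75 and 55 reads, at 4.36 and 3.04 TPM. Its ratio of 1.36 (0.948 to 1.96) also had an interval that included 1. Traf5 had 26 and 22 reads.

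Of Tradd, the RIPK genes and the 2 cIAP genes, 6 of 7 were measured, 4 with a ratio above 1. That share over all genes kept was 50.4%. Ripk2, the kinase that carries signals from the receptors NOD1 and NOD2 to NF-κB, was higher with Aβ. It had 353 and 278 reads, at 14.1 and 11.3 TPM, a ratio of 1.27 (1.08 to 1.49), the largest of the members whose interval lay above 1. Ripk1, the kinase of the TNF receptor 1 complex, had 496 and 528 reads (0.937, 0.827 to 1.06). Ripk3, the kinase of necroptosis, had 175 and 150 reads (1.16, 0.930 to 1.46). Neither of these 2 was outside counting error. Birc2 had 408 and 454 reads, at 12.7 and 14.7 TPM (0.896, 0.782 to 1.03). Birc3 had 137 and 113 reads, at 5.15 and 4.37 TPM (1.21, 0.936 to 1.57). The pair thus lay on opposite sides of equal, with intervals that overlap. Tradd had 78 and 73 reads (1.07, 0.764 to 1.49), and Ripk4 1 and 2.

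By level, receptors outweighed ligands in both libraries. The 23 receptors summed to 404 (Aβ) and 406 TPM (control), and the 13 ligands to 40.3 and 38.8 TPM. No deposited entry bears the symbol Lta, Tnfsf14, Tnfsf11, Cd40lg or Cd70, so the ligand sum leaves these ligands out. The receptor sum likewise lacks Tnfrsf17, Tnfrsf13c and Tnfrsf18. Tnfrsf1a, Tnfrsf12a and Ltbr made up 76.2% and 77.2% of the receptor sum. Tnfrsf1a was 11.1 times the level of Tnfrsf1b with Aβ and 12.7 times in the control. Fn14 (Tnfrsf12a) was 7.40 times its ligand TWEAK (Tnfsf12) with Aβ and 6.45 times in the control. For the lymphotoxin β pair the receptor was at 82.7 and 84.3 TPM and the ligand gene Ltb at 0.89 and 0.37 TPM. For the TRAIL pair Tnfrsf10b was at 7.29 and 5.79 TPM and Tnfsf10 at 0.12 and 0.23 TPM, and for the Fas pair Fas was at 6.56 and 6.66 TPM and Faslg at 0.51 and 0.50 TPM. In these pairs the receptor was far above the ligand in both libraries. The levels of the 4-1BB pair were of one order, with Tnfsf9 at 3.34 and 2.87 TPM and Tnfrsf9 at 2.31 and 1.61 TPM. The order was the opposite for APRIL and TACI, with Tnfsf13 at 4.18 and 6.72 TPM and Tnfrsf13b at 0.03 and 0 TPM. Another APRIL receptor gene, Tnfrsf17, was absent from the deposited entries, so the comparison covers Tnfrsf13b alone. Ectodysplasin (Eda, 1.88 and 1.5 TPM) was above Edar (0 and 0.08 TPM) but below Eda2r (3.42 and 3.96 TPM).

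Genes that work around the family were read from lists apart from the 51 entries. The first list also holds Ngfr, a TNF receptor superfamily member that the symbols did not take in, with 5 and 6 reads. Of its 43 signal transducers and regulators, 40 were measured, 18 with a ratio above 1 and 22 below, and the median log2 read ratio was −0.03. The interval lay above 1 for 4 and below 1 for 4, where over all genes kept the shares were 12% and 12.5%. The 2 highest with 50 or more reads were brakes on TNF signalling. Tnfaip3 (A20, which edits ubiquitin chains on RIPK1) had 715 and 497 reads, a ratio of 1.44 (1.28 to 1.61). Cflar (cFLIP, the inhibitor of caspase-8) had 723 and 540 reads (1.34, 1.19 to 1.5) but 17.7 and 14.57 TPM, so the size of its ratio depends on the unit. Next in that ranking came the deubiquitinase gene Cyld at 1.22 (0.994 to 1.5), Fadd at 1.19 (0.747 to 1.91) and Sharpin at 1.14 (1.00 to 1.29). Other brakes of the list lay closer to equal, such as Tnip1 at 1.07 (0.975 to 1.16) and Otulin at 1.07 (0.967 to 1.18). The lowest were Casp8 at 0.748 (0.510 to 1.09), Map3k8 at 0.779 (0.527 to 1.15), Mlkl at 0.798 (0.565 to 1.12), Traip at 0.822 (0.690 to 0.979) and Tab2 at 0.857 (0.803 to 0.914). Casp8, the initiator caspase of death receptors, and Mlkl, the effector of necroptosis, had 51 and 68 reads and 64 and 80 reads, and their intervals included 1.

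Of 35 genes listed here as targets of TNF and NF-κB signalling, all measured, 30 had a ratio above 1 and 5 below. Over all genes kept, 50.4% had a ratio above 1. The median log2 read ratio of the targets was 0.27. The interval lay above 1 for 21 and below 1 for 2, where over all genes kept the shares were 12% and 12.5%. The 5 highest with 50 or more reads were Ptgs2 (2.40), Il6 (2.19), Lif (1.97), Cxcl2 (1.75) and Il1b (1.74), all inflammatory mediators or cytokines. Lif, a cytokine of the interleukin-6 family, had 201 and 102 reads but 10.02 and 8.42 TPM, so its ratio depends on the unit. The 5 lowest were Tnfaip6 at 0.881 (0.672 to 1.15), Csf1 at 0.899 (0.835 to 0.967), Irf1 at 0.902 (0.786 to 1.03), Sqstm1 at 0.921 (0.884 to 0.960) and Litaf at 0.987 (0.915 to 1.06). The non-canonical subunit genes Nfkb2 and Relb, singled out after their values were seen, were at 1.2 (1.11 to 1.30) and 1.26 (1.11 to 1.42). The interval of the subunit gene Nfkb1 also lay above 1, at 1.13 (1.05 to 1.22). Those of Rel at 1.05 (0.709 to 1.57) and Rela at 1.01 (0.928 to 1.10) included 1. This list was written with results of these libraries known, and many of its genes answer to stimuli other than TNF, so its count is a description. The difference between the lists was not tested.

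**Figure D4:**
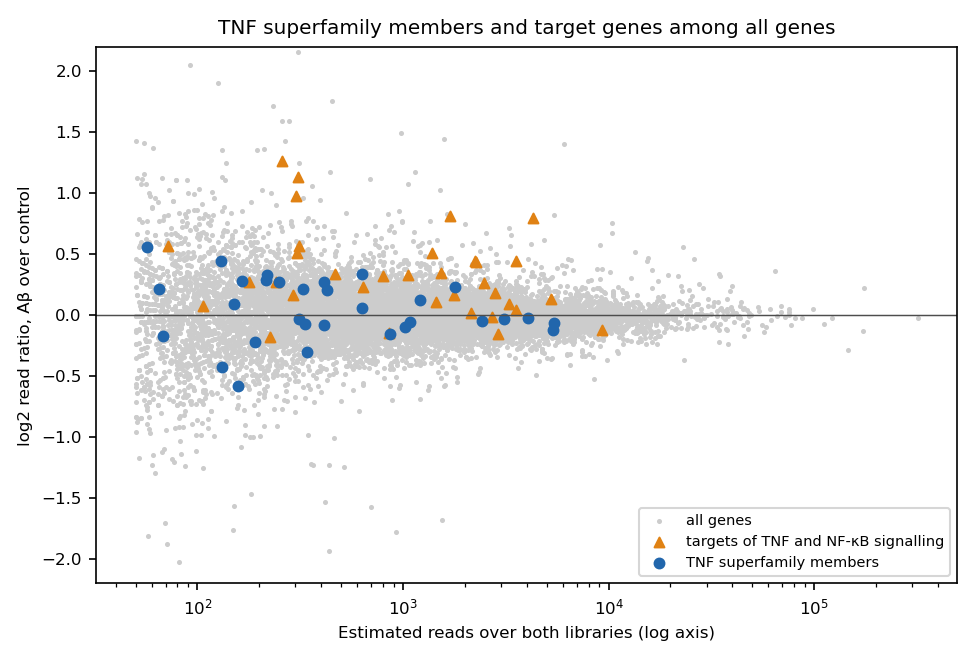
Log2 read ratio of Aβ over control against estimated reads over both libraries (log axis) for genes with 50 or more reads; grey points are all genes, circles the 31 members, triangles the 34 target genes with that many reads, and 5 genes beyond the axis and 10 with 0 reads in 1 library are not drawn. Circles lie on both sides of 0 within the cloud, while most triangles lie above 0.

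Promoter sequence was looked up in RefSeq windows of the GRCr8 build, which held 38 windows for 37 of the 51 entries. The motif searched was a loose form of the κB motif, GGG and CC with any 5 bases between them, on either strand, over the 250 bases before the start, with overlapping matches counted as separate. It was found in 24 of 38 member windows (63.2%), against 42.3% of all 33469 windows and 60.3% of the 11553 windows of genes at 1 TPM or more. Of the 24 windows of members at 1 TPM or more, 16 held it. A match is a description of letters, not a site of binding. The windows shown are those of Tnf, for the divided reads, and of the members whose read interval excluded 1, except Ripk2, which has no entry. They run 5′ to 3′ along the gene, with motif matches in capitals, and lie at chr20:3626435-3626684 (+) for Tnf, chr10:54901816-54902065 (−) for Tnfsf13, chr4:159836869-159837118 (+) for Tnfrsf1a and chr9:25451324-25451573 (−) for Tnfrsf21.
Tnf: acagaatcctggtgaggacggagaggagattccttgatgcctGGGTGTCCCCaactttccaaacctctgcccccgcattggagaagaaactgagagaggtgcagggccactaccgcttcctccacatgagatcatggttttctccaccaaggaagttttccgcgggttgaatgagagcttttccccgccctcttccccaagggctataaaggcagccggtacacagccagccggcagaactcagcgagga
Tnfsf13: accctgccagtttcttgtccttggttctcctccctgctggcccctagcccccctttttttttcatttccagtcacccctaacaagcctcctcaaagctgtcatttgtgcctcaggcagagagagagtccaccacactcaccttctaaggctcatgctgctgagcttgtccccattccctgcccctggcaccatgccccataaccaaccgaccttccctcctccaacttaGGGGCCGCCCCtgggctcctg
Tnfrsf1a: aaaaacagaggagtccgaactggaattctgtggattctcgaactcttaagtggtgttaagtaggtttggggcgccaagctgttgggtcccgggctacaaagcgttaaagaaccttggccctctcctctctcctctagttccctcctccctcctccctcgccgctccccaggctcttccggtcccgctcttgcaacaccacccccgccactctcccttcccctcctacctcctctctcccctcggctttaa
Tnfrsf21: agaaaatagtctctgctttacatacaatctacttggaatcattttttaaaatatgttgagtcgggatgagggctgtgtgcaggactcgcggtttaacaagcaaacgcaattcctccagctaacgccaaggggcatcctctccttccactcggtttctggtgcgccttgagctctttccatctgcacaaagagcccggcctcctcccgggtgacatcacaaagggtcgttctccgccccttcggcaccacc
The window of Tnf holds 1 match, 208 bases before the start, and that of Tnfsf13 holds 2 that overlap, 21 and 20 bases before it. Those of Tnfrsf1a and Tnfrsf21 hold 0.

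The authors' deposited table of gene ontology terms, which covers genes they list as higher with Aβ, names 2 of the members, Tnf and Ripk2. Its terms hold 246 distinct genes, and it sets 391 listed genes against a background of 13666. How many of the 51 entries that background holds is not given, so the 2 members are a description. In the authors' deposited table Tnf stands in 141 of 282 terms and Ripk2 in 79. Of its 8 terms that name tumor necrosis factor, the authors' deposited table gives the lowest adjusted p, 0.00195, to the response to tumor necrosis factor, with 17 of 391 listed genes and a fold enrichment of 3.28. Tnf is the member in that term and in the cellular response, and Ripk2 is the member in the other 6, which concern production of the cytokine. The other genes of the response term in the authors' deposited table include Ptgs2, Il6, Ccl2, Cd14 and Nos2, none of them a ligand, receptor or adaptor of the family. The row named Tnf was at 76.02 and 0 reads, while the sum with LOC103694380 had an interval that included 1.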

How the data were processed

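RNA from 2 cultures was measured by mRNA sequencing. Per the submitters' processing notes the authors used Bowtie2 and Rnor_6.0, and the sources used here name no counting tool or annotation. The authors deposited an estimated count of reads per gene, used for ratios, and TPM, used for levels; the deposited FPKM and a deposited score named normalized count were not used. The authors' enrichment table holds, per the file headers, a z score, fold enrichment ratio, p-value and its adjusted form for each term.

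Estimated counts were rounded for exact 95% intervals (scipy 1.17.1). The ratios, from unrounded counts, and the interval bounds were then scaled to library totals. Genes that reached 1 TPM in at least 1 library were kept, after Tnf and LOC103694380 were summed. Rules of size were 2-fold by TPM with a pseudocount of 1, and 1.5-fold by reads with 50 or more reads. Intervals were tried on counts simulated under the Poisson model that they assume. Those counts hold no variation between cultures, so the trial does not show how the intervals cover it. Without molecular identifiers, reads do not count independent molecules, so intervals cover counting error only. Members, lists and rules were chosen with earlier results of these data known, and the margin of 2-fold about equal after seeing these values. Members at 1 TPM with 50 reads are named with their values, the others by reads. From each pathway list the 5 highest and 5 lowest with 50 reads are named. Other list genes named, such as Tnip1, Otulin and the NF-κB subunit genes, fall outside that rule. Alternatives were other scalings, filters, pseudocounts and units, leaving out genes with divided (non-whole) reads, and separate Tnf rows.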

Additional observations from a re-analysis of the deposited data

How the results depend on the processing

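Of 60 alternative values of the summaries, 56 were close to the main value. Close meant within 1.5 times for counts, within the counting interval for ratios, and for medians within an interval from the spread among genes. For members that interval was −0.064 to 0.228, so a change of sign could count as close. For 30 single members, 90 of 90 alternative values lay within counting intervals. The scalings among these could hardly move a ratio, since their size ratios were 1.00263, 1 and 1.00247. With Tnf and LOC103694380 as separate entries, 1 member (Tnf) was 2-fold higher by TPM and 1 was 1.5-fold higher by reads, in place of 0, and LOC103694380 alone had a ratio of 0.805. A margin of 2-fold in place of 1.5-fold, added after seeing the data, took in 29 members in place of 19. The median log2 read ratio of members lay between −0.03 (5 TPM filter, or separate Tnf rows) and 0.08 (no TPM filter), so it has no settled sign. No paired analysis was possible because each group has 1 library. Leaving out a library was not run for the same reason. Depth limits the 17 members under 1 TPM, which had 27 reads or fewer in a library.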
